A study of Mus musculus with 55 samples.

Results

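The steroid dehydrogenases and reductases described here were 10 genes of the liver: Hsd11b1, Hsd17b13, Hsd17b6, Hsd17b2, Hsd3b5, Hsd3b2, Hsd3b3, Hsd3b7, Akr1c6 and Akr1d1. They were taken by symbol from 34490 symbols that both batches of count tables hold, and they were named with earlier results of these data in view. Differences between genotypes and conditions are therefore given as a description with the calls of fits over all genes tested, and how many of the 10 passed is not independent evidence. Hsd11b1 is also a gene that the study itself picked out from these libraries.

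Hepatocytes take up steroid hormones from the blood and oxidise or reduce them at a few positions of the ring system, which switches a hormone between an active and an inactive form or marks it for excretion. Hydroxysteroid dehydrogenases (HSD genes) act on hydroxyl and keto groups, while aldo-keto reductases (AKR genes) reduce keto groups and double bonds, and some members of both families serve bile acid synthesis. Mouse liver is also known for a strong sex bias of part of this machinery, set by the growth hormone pattern. It is known too for a division of labour along the axis from the portal to the central vein.

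RNA of whole adult mouse livers (C57BL/6) was sequenced from mice with floxed alleles of the ubiquitin ligases Rnf43 and Znrf3, both negative regulators of WNT signalling. R&Zdel mice had both genes recombined as adults of at least 8 weeks, by a hepatotropic AAV8 virus carrying Cre under the TBG promoter or by tamoxifen with an albumin promoter Cre, so that other liver cells kept intact alleles. R&Zflox mice carried the same floxed alleles without recombination and received AAV8-null virus or vehicle, and are marked wild-type in the sample records. Livers came from undamaged mice at 1, 3 and 7 months (1M, 3M, 7M) after recombination, from mice at 4, 50 and 170 days of recovery from repeated injections of the hepatotoxin CCl4 (chronic damage, CD), and from mice at 7 and 21 days after partial hepatectomy (PHx). The study's methods state that unrecombined controls of the CCl4 experiments received corn oil only, whereas the sample records mark chronic damage for R&Zflox too, and which holds for the R&Zflox CD libraries is not settled here. In the CCl4 experiment the study gave tamoxifen again, to keep hepatocytes without recombination from expanding. Tamoxifen is also the induction listed for R&Zflox libraries of CD and other groups. Whether those mice received tamoxifen or vehicle is not settled here either.

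Data of 53 libraries were analysed, 23 of a first and 30 of a second batch, and 48 of them had an unambiguous group: 25 undamaged, 11 CD and 12 PHx libraries. All 1M and PHx libraries were of the second batch, and all CD libraries were of the first batch and male. The induction listed was AAV8 for all 1M, PHx and second-batch 3M libraries, and tamoxifen for all 7M, CD and first-batch 3M libraries. Induction therefore cannot be told apart from time between 1M and 7M, from batch at 3M, or from the damage model. The 1M groups held 2 males and 2 females per genotype. Only 3 other libraries with a group were listed as female, 1 R&Zdel 3M and 1 R&Zflox 7M library of the first batch and 1 R&Zdel PHx 21d library. Total counts over the shared symbols ranged from 11573883 to 37454126. Rnf43 was between 3.39 and 58.7 CPM (counts per 1000000 of the library total) in R&Zflox and between 19.0 and 68.4 CPM in R&Zdel livers, and Znrf3 between 4.63 and 35.3 and between 11.9 and 166 CPM, so neither gene was lower in the mutants. Counts over whole genes do not show which exons the reads came from and do not check the deletion. The library R&Zflox PHx 7d replicate 3 was listed as male, but held 381 CPM of Xist and 0.0601 CPM of 4 Y-linked genes together. This is the pattern of the female libraries, and results that rest on it are given with that in mind. Hsd3b7 was listed at 0 in all 30 libraries of the second batch and is described from the first batch alone.

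All 10 genes lie apart on the mouse genome (mm10) except the Hsd3b cluster of chromosome 3, where Hsd3b5 (98618636 to 98645534), Hsd3b2 (98711107 to 98724543) and Hsd3b3 (98741476 to 98764540) follow each other on the minus strand. Promoters of this cluster are shown first because Hsd3b5 held the widest differences of all members and its neighbour Hsd3b3 shares sequence with it. The promoters of Hsd3b5 and Hsd3b3, from 250 bases before to 50 bases after the start site (RefSeq, GRCm38.p6), were identical at 192 of 253 aligned positions (75.9%), and the longest stretch they shared exactly, 24 bases, is set in capitals. The Hsd3b2 promoter aligned over only 51 positions with Hsd3b5 and 66 with Hsd3b3, with a longest run of 6 bases in each alignment. Outside these alignments it shares longer runs, such as tgtgcctgccttcaggatc with Hsd3b5 and gcacactctgctctct with Hsd3b3. Hsd3b3 has another promoter entry, chr3:98762361-98762660, which is not printed. The windows are chr3:98645485-98645784 for Hsd3b5 and chr3:98763079-98763378 for Hsd3b3, both minus strand and written 5′ to 3′.
Hsd3b5: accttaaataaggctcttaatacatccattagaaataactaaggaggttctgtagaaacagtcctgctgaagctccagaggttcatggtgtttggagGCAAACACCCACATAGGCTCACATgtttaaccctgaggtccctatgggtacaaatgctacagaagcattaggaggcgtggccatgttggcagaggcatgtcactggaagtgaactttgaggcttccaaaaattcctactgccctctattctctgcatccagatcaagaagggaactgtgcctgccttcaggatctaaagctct
Hsd3b3: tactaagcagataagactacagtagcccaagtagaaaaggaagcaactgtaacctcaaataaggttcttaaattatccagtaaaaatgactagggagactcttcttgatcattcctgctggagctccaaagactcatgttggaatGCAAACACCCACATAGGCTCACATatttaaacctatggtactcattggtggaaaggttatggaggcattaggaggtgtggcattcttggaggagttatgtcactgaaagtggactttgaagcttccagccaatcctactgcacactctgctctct

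Hsd11b1 (chromosome 1, 193221640 to 193264045, minus strand) and Hsd17b13 (chromosome 5, 103955442 to 103977388, minus strand) are shown because they were the members whose levels differed most steadily between the genotypes. The windows are chr1:193242311-193242610 and chr5:103977339-103977638, both minus strand, and capitals mark the 50 bases after the start site. The Hsd11b1 window lies inside the annotated gene, and the sequence at the gene's annotated 5′ end (193264045) was not searched. Neither window, nor that of Hsd3b5, held any of the motifs searched on both strands: the TCF/LEF words CTTTGAT, which 3.73% of 32851 promoters of this length hold, and CTTTGTT (5.85%), the STAT5 word TTCNNNGAA (8.3%), the HNF4 word CAAAGTCCA (0.475%), or the palindromic motifs of HNF1 and of the glucocorticoid receptor (0.00913% each). Over the members with a promoter entry, matches were found only for the HNF4 word in Hsd3b3 and for the STAT5 word in Hsd3b7. These matches say only which letters the windows contain.
Hsd11b1: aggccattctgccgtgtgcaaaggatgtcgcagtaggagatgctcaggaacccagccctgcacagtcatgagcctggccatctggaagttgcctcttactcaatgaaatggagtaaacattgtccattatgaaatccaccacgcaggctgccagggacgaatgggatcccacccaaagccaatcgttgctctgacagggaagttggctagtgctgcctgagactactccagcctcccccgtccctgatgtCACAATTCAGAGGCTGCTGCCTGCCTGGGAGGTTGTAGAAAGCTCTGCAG
Hsd17b13: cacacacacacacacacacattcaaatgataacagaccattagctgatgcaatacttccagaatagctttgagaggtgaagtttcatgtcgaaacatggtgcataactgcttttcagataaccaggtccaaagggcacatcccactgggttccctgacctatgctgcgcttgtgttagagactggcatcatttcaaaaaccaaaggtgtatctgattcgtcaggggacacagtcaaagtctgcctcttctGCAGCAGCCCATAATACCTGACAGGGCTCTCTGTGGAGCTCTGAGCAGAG

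Words of 50 bases were compared over the longest coding transcript of each gene, which is not the same as its counted exons. Of those in Hsd3b3, 27.1% also occur in other genes, mostly Hsd3b2. That share was 21.7% for Hsd3b2, 18.1% for Hsd3b5 (mostly the neighbouring Gm10681) and 14.8% for Hsd17b6 (mostly Rdh1). Hsd11b1, Hsd17b2, Hsd3b7 and Akr1d1 shared no such word, and Hsd17b13 and Akr1c6 shared 0.663% and 2.08%. Values of the Hsd3b genes of chromosome 3 and of Hsd17b6 are therefore uncertain. The shares do not bound by how much, since that also depends on the level of the other gene.

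Per kilobase of annotated exon, the members of undamaged male R&Zflox livers of the first batch ranged from 8.23 to 1381 CPM per kb. Akr1c6 (a reductive 17β-hydroxysteroid dehydrogenase) was highest at 1381 ± 92.7 CPM per kb (SD, n = 3), followed by Hsd11b1 (743 ± 32.2), Hsd3b7 (415 ± 10.1), Hsd17b13 (244 ± 21.1), Hsd3b5 (175 ± 30.9), Hsd17b2 (134 ± 31.8), Hsd17b6 (77.3 ± 49.0), Hsd3b3 (76.9 ± 4.68), Akr1d1 (17.1 ± 3.73) and Hsd3b2 (8.23 ± 0.719), each in CPM per kb. The ranges of the 3 libraries did not overlap between neighbours in this order except for Hsd3b5 and Hsd17b2, Hsd17b2 and Hsd17b6, and Hsd17b6 and Hsd3b3. The order also depends on the length used. Annotated exons came to 3238 bases for Hsd3b3 and 7113 for Akr1d1, against 1610 and 2699 in their longest coding transcripts.

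Hsd11b1 encodes 11β-hydroxysteroid dehydrogenase type 1, which in liver regenerates active glucocorticoid from its inert keto form. It was lower in R&Zdel than in R&Zflox livers of the same batch without overlap in 9 of 10 comparisons of group and batch, and never higher. At 3M and CD 50d 1 genotype had a single library, and at CD 4d, CD 170d and first-batch 7M each genotype had 2. Groups this small often do not overlap, and the share of all genes without overlap is not given here. This limit holds for such counts of every member. In undamaged 1M livers it was at 618 and 629 CPM in R&Zflox males and 667 and 802 CPM in females, against 138 and 251 CPM in R&Zdel males and 343 and 489 CPM in females. At 3M the R&Zflox libraries were at 1218 and 1283 CPM (first batch) and 714, 958 and 1220.0 CPM (second batch), and the R&Zdel libraries at 605 and 441 CPM. At 7M the R&Zflox libraries were at 1178 and 1258 CPM in the first and 864, 1064 and 1531 CPM in the second batch, and the R&Zdel libraries at 359 and 645 CPM and at 102, 241 and 621 CPM. Every mutant library thus lay below every control library of its time point and batch, while the mutants of 7M differed among themselves by a wide margin.

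Hsd17b13 encodes a dehydrogenase on the lipid droplets of hepatocytes, and it was the one member that was lower in R&Zdel without overlap in all 10 comparisons. At 1M the R&Zflox libraries held 197 and 197 CPM (females) and 210.4 and 233 CPM (males), and the R&Zdel libraries 47.4 and 54.8 CPM (females) and 27.6 and 30.5 CPM (males). At 3M they held 487 and 498 CPM (first batch) and 127, 175 and 223 CPM (second batch) against 88.1 and 45.3 CPM. At 7M the R&Zflox libraries held 502.3 and 570.0 CPM and 317, 324 and 393 CPM, and the R&Zdel libraries 75.0 and 81.4 CPM and 22.4, 75.3 and 201 CPM. The first batch read higher than the second in the controls of 3M and 7M, which is why batches are kept apart. At 3M the batches also differed in induction.

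**Figure D1:**
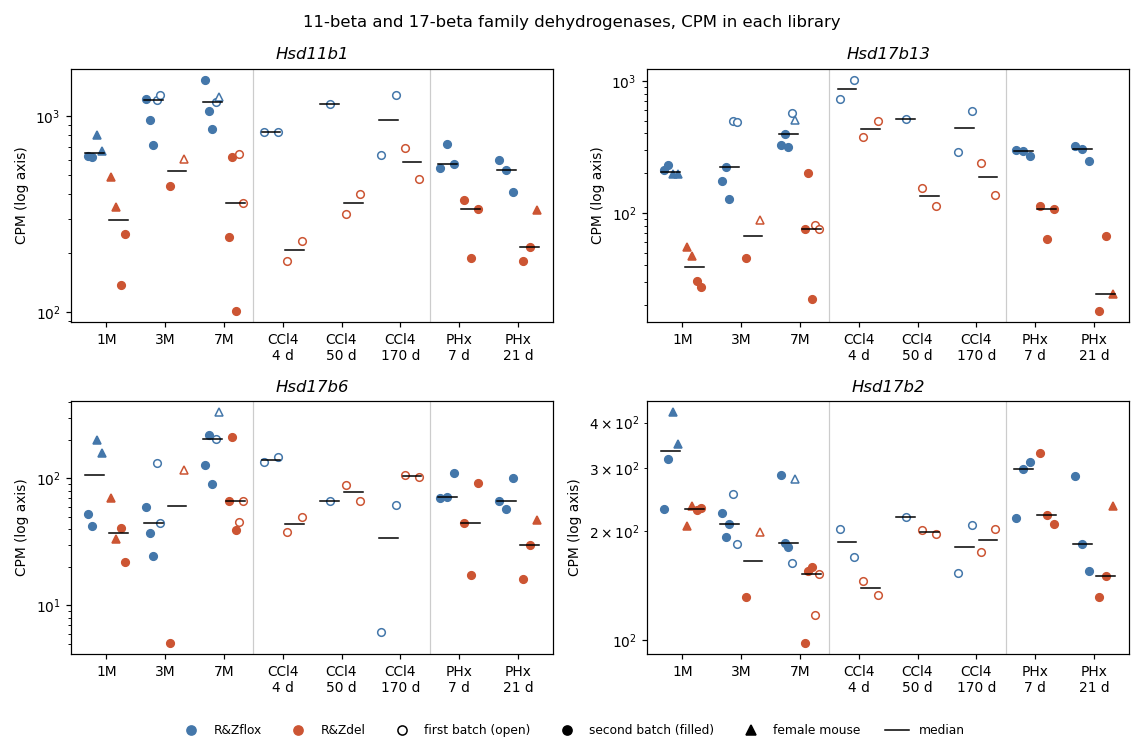
CPM of Hsd11b1, Hsd17b13, Hsd17b6 and Hsd17b2 in each library (log axis) against time or condition, coloured by genotype, open for the first and filled for the second batch, triangles for female mice, with a line at the median of both batches. Hsd17b13 in R&Zdel lies below R&Zflox of the same batch in all 10 comparisons, and Hsd11b1 in 9 of 10.

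In the fit over all undamaged libraries, with terms for sex and batch, Hsd17b13 was 6.06-fold lower in R&Zdel at 1M (log2 fold change -2.60 ± 0.42 (SE), edgeR quasi-likelihood adjusted p = 0.00173). It was the only 1 of 9 members tested that met both call criteria (adjusted p under 0.1, log2 fold change beyond 1 in size), which 0.436% of the 12848 genes tested met. Hsd11b1 was at -1.39 ± 0.37 (2.62-fold lower) with an adjusted p of 0.151 by edgeR and of 0.00763 by DESeq2. At 7M both passed, Hsd17b13 at -2.07 ± 0.37 (adjusted p = 0.00605) and Hsd11b1 at -1.52 ± 0.34 (adjusted p = 0.0385), 2 of 9 members against 0.451% of all genes. The Hsd11b1 call at 7M did not hold without R&Zdel replicate 2 or 3 or without R&Zflox replicate 3, with log2 fold changes from -1.46 to -1.31. In the second batch alone neither passed at 7M (Hsd17b13 -1.81, adjusted p = 0.225; Hsd11b1 -1.86, adjusted p = 0.155), and in the first batch alone Hsd17b13 did (-2.92, adjusted p = 0.0352).

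With 2 R&Zdel libraries at 3M, 1 female and 1 male of different batches, edgeR called 0 of 9 members, where 0.226% of all genes passed, 3 members had an unadjusted p under 0.05 and DESeq2 called 1. That was Hsd17b13, at -2.34 ± 0.56 by edgeR (adjusted p = 0.134) and with an adjusted p of 0.000584 by DESeq2, and without R&Zflox 3M replicate 5 it passed by edgeR (-2.54). Hsd11b1 was at -1.32 ± 0.48. The effect of the deletion was called different between 1M, 3M and 7M for 0 members by edgeR and by DESeq2, and 0 members had an unadjusted p under 0.05 for such a difference. Over all genes edgeR called 0% there, with 537 to 751 genes at an unadjusted p under 0.05 and 32 to 102 called by DESeq2. For Hsd17b13 the difference between 7M and 1M was 0.53 ± 0.54, and for Hsd11b1 -0.13 ± 0.49, both on the log2 scale. Induction also differed between 1M (AAV8) and 7M (tamoxifen).

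Hsd17b6 and Hsd17b2 also act at the 17 position. Hsd17b6, which oxidises androgen metabolites, spread widely within groups: undamaged R&Zflox libraries ranged from 24.3 to 331 CPM and R&Zdel libraries from 5.08 to 213 CPM. At 1M the R&Zflox females held 159 and 201 CPM against 33.2 and 70.4 CPM in R&Zdel, whereas the males held 42.4 and 52.8 against 21.8 and 40.8 CPM. On the log2 scale the mutants differed by -1.35 ± 0.57 (1M), -1.60 ± 0.80 (3M) and -0.74 ± 0.50 (7M), and none passed (adjusted p 0.513 or higher). Hsd17b2, which oxidises oestradiol and testosterone to their less active keto forms, stood at 229.9, 317, 349.8 and 427 CPM in R&Zflox and at 207, 229, 233 and 234 CPM in R&Zdel at 1M, ranges that overlapped through 1 control library. The differences of -0.70 ± 0.23 (1M), -0.58 ± 0.29 (3M) and -0.52 ± 0.21 (7M) on the log2 scale did not pass (adjusted p 0.278 or higher).

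Akr1c6 stood the other way in most comparisons. On the CPM scale it was above R&Zflox without overlap in 7 of 10 comparisons and never below, but with TMM scaling the sign turned at CD 50d (-0.14 ± 0.32), which is among the 7, and it was lower without passing at CD 4d, where the CPM overlapped. At 1M the R&Zflox libraries were at 1279.7, 1351, 1376 and 1759 CPM and the R&Zdel libraries at 1690.4, 2167, 2466 and 2533 CPM, so the groups overlapped by 1 library. At 3M the R&Zflox libraries of the first batch were both at 1996 CPM against 2452 CPM, and those of the second at 546 to 981 CPM against 1787 CPM, without overlap. At 7M the second batch overlapped, with 1455 to 1577 CPM against 1342 to 3071 CPM. The log2 fold changes of 0.43 ± 0.24, 0.85 ± 0.30 and 0.40 ± 0.22 (unadjusted p = 0.0911, 0.00845 and 0.0802) did not pass (adjusted p 0.483 or higher). Akr1d1, the 5β-reductase of bile acid synthesis and steroid hormone clearance, overlapped between the genotypes in 6 of 10 comparisons, and its log2 fold changes in undamaged liver lay between -0.56 and 0.40 with errors of 0.42 to 0.59.

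**Figure D2:**
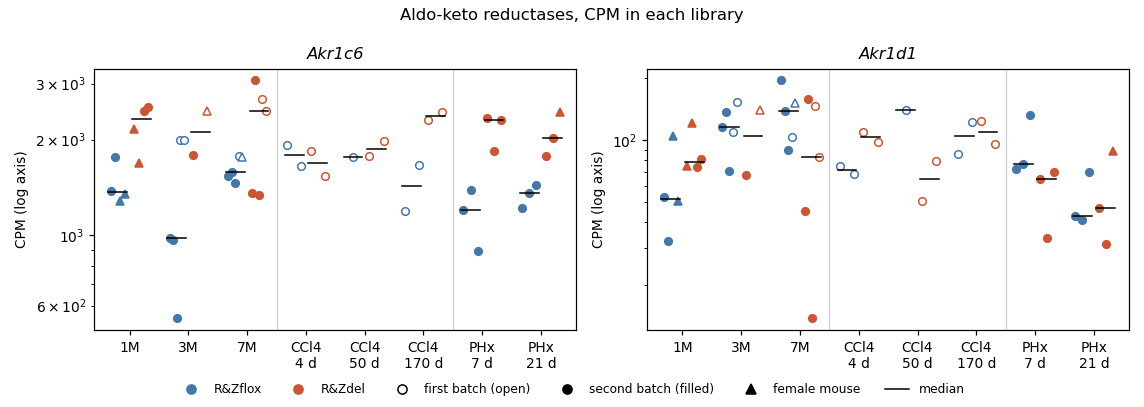
CPM of Akr1c6 and Akr1d1 in each library (log axis) against time or condition, with genotype by colour, batch by open or filled symbols, females as triangles and medians as lines. Akr1c6 in R&Zdel lies above R&Zflox of the same batch in 7 of 10 comparisons, of which CD 50d turns sign with TMM scaling (-0.14), and Akr1d1 overlaps in 6.

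Among the Hsd3b genes of chromosome 3, the sexes were furthest apart in Hsd3b5. This gene, a keto-steroid reductase of male mouse liver, was at 344 and 355 CPM in male and 10.2 and 17.7 CPM in female R&Zflox livers at 1M, and at 369.6 and 482 CPM in male and 13.8 and 13.9 CPM in female R&Zdel livers. The female R&Zflox 7M library held 1.01 CPM where the 4 males held 234 to 300.01 CPM, and the female R&Zdel 3M library held 7.16 CPM where the male held 80.9 CPM. No female library of undamaged liver overlapped a male one. In the fit over undamaged libraries Hsd3b5 was 34.2-fold lower in females (log2 fold change -5.09 ± 0.45, edgeR adjusted p = 3.91e-08), the 1 member of 9 that passed, where 0.918% of all genes did.

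Hsd3b3, its neighbour, leaned the same way with a smaller difference. At 1M it was at 326 and 355 CPM in male and 172 and 175 CPM in female R&Zflox livers, and at 224 and 229 CPM in male and 149 and 209 CPM in female R&Zdel livers. Its log2 fold change of females over males was -0.80 ± 0.21 (adjusted p = 0.0738), short of the fold minimum. Hsd3b2 was low at 4.05 to 69.1 CPM in undamaged livers and differed between the sexes by -0.65 ± 0.58 on the log2 scale (adjusted p = 1). Hsd17b6 was higher in females by 1.48 ± 0.48 (adjusted p = 0.273), and the other members differed by between -0.40 and 0.41.

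Between genotypes, Hsd3b5, Hsd3b2 and Hsd3b3 did not pass at any undamaged time point, with log2 fold changes of -0.06 ± 0.45, -0.06 ± 0.66 and -0.44 ± 0.24 at 1M. In the same order they were -0.54 ± 0.62, -1.77 ± 0.96 and -0.07 ± 0.31 at 3M, and 0.56 ± 0.40, -0.18 ± 0.58 and -0.16 ± 0.22 at 7M. The difference of the genotype effect between the sexes at 1M was called for 0 of 9 members by edgeR and by DESeq2, with 0.00886% of all genes called by edgeR and 1 member at an unadjusted p under 0.05, Hsd17b13 at 0.89 ± 0.32 (adjusted p = 0.607). Hsd3b7, a dehydrogenase of the bile acid pathway rather than of hormones, was measured in the first batch at 764 and 770.3 CPM in R&Zflox and 932 CPM in R&Zdel at 3M, and at 736 and 1034 CPM against 652 and 1015 CPM at 7M. The genotypes overlapped at 7M, and fitted in the first batch alone the log2 fold changes were -0.08 ± 0.50 and 0.11 ± 0.33 (adjusted p = 0.991 and 0.999).

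**Figure D3:**
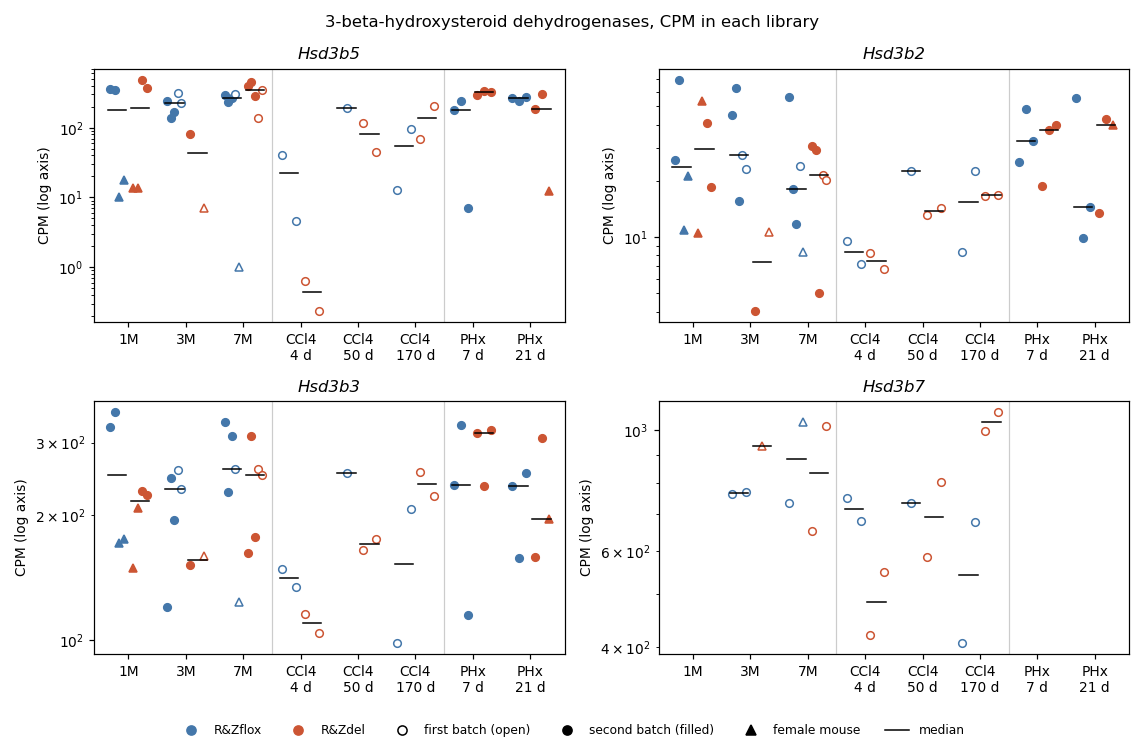
CPM of Hsd3b5, Hsd3b2, Hsd3b3 and Hsd3b7 in each library (log axis) against time or condition, with genotype by colour, batch by open or filled symbols, females as triangles and medians as lines, and Hsd3b7 for the first batch alone. Female libraries lie at the bottom for Hsd3b5 in undamaged liver, the R&Zdel CD 4d libraries fall to 0.239 and 0.643 CPM, and the low circle of R&Zflox PHx 7d, at 7.15 CPM, is the library listed as male whose transcripts had the female pattern.

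At 4 and 50 days after chronic CCl4, 5 and 3 of the 10 members were called between the genotypes, where 15.2% and 5.58% of all genes were, and at 170 days 0 of 10. At 4 days Hsd11b1 was at 828.6 and 836 CPM in R&Zflox and 183 and 232 CPM in R&Zdel. Hsd17b6 was at 133 and 148 CPM against 37.7 and 50.0 CPM. Hsd17b13 was at 726 and 1015 CPM against 375 and 493.1 CPM. Hsd3b5 held 4.59 and 40.1 CPM in R&Zflox and only 7 and 17 counts in R&Zdel, 0.239 and 0.643 CPM. Hsd3b7 was at 679.9 and 752 CPM against 422 and 549 CPM. In all 5 genes, which were picked by their calls, both mutant livers lay below both controls. So they did in Hsd17b2 and Hsd3b3, which were not called, while in Akr1d1 both mutants lay above both controls. By edgeR Hsd11b1, Hsd17b6, Hsd17b13, Hsd3b5 and Hsd3b7 passed, 5 of 10 members and all lower. Of the 11358 genes tested, 15.2% passed in either direction and 4.95% lower.

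The fitted log2 fold change at 4 days was -2.51 ± 0.34 for Hsd11b1 (5.71-fold lower, edgeR adjusted p = 0.00297) and -6.18 ± 1.5 for Hsd3b5 (adjusted p = 0.024). It was -1.51 ± 0.42 for Hsd17b13 (adjusted p = 0.0366) and -2.19 ± 0.76 for Hsd17b6 (adjusted p = 0.075). For the bile acid enzyme gene Hsd3b7 it was -1.07 ± 0.26 (adjusted p = 0.0232). Hsd17b2 (-0.92 ± 0.23, adjusted p = 0.027) and Hsd3b3 (-0.86 ± 0.31, adjusted p = 0.0844) fell short of the fold minimum. Akr1c6 (-0.57 ± 0.26), Hsd3b2 (-0.66 ± 0.40) and Akr1d1 (0.03 ± 0.23) did not pass. The scaling mattered here. With library totals in place of TMM the median log2 fold change of all genes moved from 0.06 to 0.57, and the calls over all genes from 1167 higher and 562 lower to 2768 higher and 197 lower. Of the members only Hsd11b1 (-2.0) and Hsd3b5 (-5.67) then still passed, with Hsd17b13 at -1.0, Hsd17b6 at -1.67, Hsd3b7 at -0.55 and Akr1d1 at 0.54. With 2 libraries a group, leaving out any one of the 4 ended 2 or 3 of the 5 calls, and only the call of Hsd11b1 held in each case. Without R&Zdel CD 4d replicate 1 or R&Zflox CD 4d replicate 2, Hsd17b2 passed (-1.07 in both). Without R&Zflox CD 4d replicate 1 the value of Hsd3b5 was -3.87, and without R&Zdel CD 4d replicate 2 it was -5.55. For 3 CD libraries the records conflict, and their transcripts have the female pattern. Entered by the fields other than the title, as 1 R&Zflox and 1 R&Zdel library of CD 50d and 1 R&Zdel library of CD 170d, they widened the errors of the shared model. The values at CD 4d stayed close, and only Hsd11b1 still passed (-2.52, adjusted p = 0.0751).

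Markers of other cell types moved with these values. The 7 cholangiocyte markers summed to 3728 and 6666 CPM in R&Zdel and 91.0 and 162 CPM in R&Zflox at 4 days, and all 7 were called higher. The stellate cell and fibroblast markers summed to 415 to 1177 against 207 to 315 CPM and the macrophage markers to 484 to 842 against 613 to 1342 CPM. The 9 hepatocyte markers summed to 99722 CPM in R&Zdel and to 119408 CPM in R&Zflox, each the median of 2 libraries. Among zonation markers, the 12 periportal ones summed to 1864 and 2094 CPM in R&Zdel against 6110 and 7185 CPM in R&Zflox. The 13 pericentral ones summed to 5806 and 6922 against 3961 and 4672 CPM. The part of these shifts in the values of the members was not tested, and in bulk tissue fewer cells of a type and less RNA per cell cannot be told apart.

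At 50 days the single R&Zflox library held 1159 CPM of Hsd11b1, 517.4 CPM of Hsd17b13 and 141 CPM of Akr1d1, and the R&Zdel libraries 317 and 403, 113 and 154, and 50.9 and 79.4 CPM. These 3 of 10 members passed, all lower, against 5.58% of all genes in either direction. Hsd17b13 was at -2.15 ± 0.48 (adjusted p = 0.0645), Hsd11b1 at -1.93 ± 0.38 (adjusted p = 0.0531) and Akr1d1 at -1.37 ± 0.27 (adjusted p = 0.0538). The lone control was assumed to vary like the other CD groups. Without R&Zdel CD 50d replicate 1 none of them passed, and without replicate 2 Hsd17b13 did not (-1.80). With the libraries of conflicting records entered by their other fields, none of the 3 passed, and the values shrank to -0.41 (Hsd17b13), -0.38 (Hsd11b1) and -0.46 (Akr1d1). Hsd3b5 had come back to 45.3 and 118 CPM in R&Zdel, against 191 CPM in the control (-1.37 ± 1.27). The other members did not pass, with Hsd3b2 at -0.94 ± 0.46, Hsd3b3 at -0.80 ± 0.37, Hsd17b2 at -0.36 ± 0.28, Hsd3b7 at -0.33 ± 0.31, Akr1c6 at -0.14 ± 0.32 and Hsd17b6 at 0.04 ± 0.89. Cholangiocyte markers summed to 614 and 1203 CPM in R&Zdel against 105 CPM in the control, stellate cell and fibroblast markers to 383 and 608 against 224 CPM, and macrophage markers to 186 and 291 against 389 CPM. The 12 periportal markers summed to 2313 and 2549 against 6883 CPM. The 13 pericentral markers summed to 12601 and 14492 CPM in R&Zdel, on both sides of the 13338 CPM of the control. Their part in these values was not tested.

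At 170 days Hsd17b13 was at 289.7 and 593 CPM in R&Zflox and 136 and 239.7 CPM in R&Zdel (-1.44 ± 0.42, adjusted p = 0.275). Hsd11b1 was at 631 and 1279 CPM against 479 and 685 CPM (-0.92 ± 0.32), the 1 comparison of 10 in which Hsd11b1 overlapped. Of the 10 members, edgeR called 0 at 170 days, where 0.625% of all genes passed, with 3 at an unadjusted p under 0.05 and 1 called by DESeq2. The 2 controls were far apart. R&Zflox replicate 1 held 6.12 CPM of Hsd17b6, 12.7 CPM of Hsd3b5 and 408 CPM of Hsd3b7 and replicate 2 held 61.5, 96.2 and 679 CPM. Their log2 fold changes were 1.42 ± 0.74, 1.11 ± 1.09 and 0.72 ± 0.26. For Akr1c6 it was 0.52 ± 0.26 and for Hsd3b3 0.44 ± 0.31, and Hsd17b2 (-0.15 ± 0.23), Akr1d1 (-0.14 ± 0.23) and Hsd3b2 (-0.09 ± 0.39) lay nearer to 0. With the libraries of conflicting records entered, Hsd17b13 stood at -0.59 and Hsd11b1 at -0.45. With replicate 1 as the only control, Hsd17b6 (3.89), Hsd3b7 (1.13) and Hsd3b3 (1.07) passed as higher in R&Zdel.

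The difference of the genotype effect between 170 and 4 days was called for 4 of 10 members, where 6.92% of all genes were. They were Hsd3b5 (7.29 ± 1.85, adjusted p = 0.0675), Hsd17b6 (3.62 ± 1.06, adjusted p = 0.0981), Hsd3b7 (1.79 ± 0.36, adjusted p = 0.0357) and Hsd11b1 (1.59 ± 0.45, adjusted p = 0.0907), each a log2 difference towards higher values in R&Zdel at 170 days. At that time Hsd11b1 was still lower in R&Zdel (-0.92), while Hsd3b5 (1.11), Hsd17b6 (1.42) and Hsd3b7 (0.72) had turned sign, none of them called. These calls depended on single libraries. Leaving out each library in turn gave 0 to 8 called members, and with library totals 2 passed.

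R&Zflox livers at CD 4d were set against undamaged first-batch livers of 3M and 7M. In the paper's timeline CD 4d falls earlier after recombination than 3M. Damage therefore cannot be told apart from time after recombination or age in any comparison of CD 4d with undamaged liver. Hsd3b2 (-1.59 ± 0.33, adjusted p = 0.0172) and Hsd3b5 (-3.48 ± 1.09, adjusted p = 0.0884) were lower at CD 4d, 2 of 10 members against 5.37% of all genes. The Hsd3b2 levels were 7.17 and 9.54 CPM, below the 23.3, 24.0 and 27.4 CPM of undamaged control males and near the 8.35 CPM of the female control. Without R&Zflox CD 4d replicate 2 neither call held (-1.38 and -2.63), and that of Hsd3b5 was also lost without any 1 of the 3 undamaged control males. Hsd3b3 (-0.87 ± 0.26) and Akr1d1 (-0.86 ± 0.28) had adjusted p-values of 0.0725 and 0.0992 without reaching the fold minimum. Hsd11b1 was at -0.63 ± 0.30 and Hsd17b13 at 0.68 ± 0.31, neither called.

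R&Zdel livers at CD 4d differed from undamaged R&Zdel livers of 3M and 7M in 7 of 10 members, against 31.3% of all genes. Hsd3b5 was lowest relative to undamaged liver (-10.17 ± 1.62, adjusted p = 0.000447), from 138 and 344 CPM in undamaged 7M males of the batch to 0.239 and 0.643 CPM. Hsd3b2 (-2.24 ± 0.36), Hsd11b1 (-2.0 ± 0.34), Hsd3b3 (-1.94 ± 0.28), Hsd3b7 (-1.39 ± 0.24) and Akr1c6 (-1.27 ± 0.22) were lower as well. Hsd17b13 moved the other way, from 75.0, 81.4 and 88.1 CPM in undamaged R&Zdel to 375 and 493.1 CPM (1.76 ± 0.34, adjusted p = 0.00146), while it remained below the CD 4d controls. With library totals the median of all genes moved from 0.06 to 0.72, Hsd3b7 (-0.73) and Akr1c6 (-0.61) no longer passed and Hsd17b13 stood at 2.44. Without R&Zdel 7M replicate 2, Akr1d1 passed as well (-1.11 in place of -0.82).

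The difference of the genotype effect between CD 4d and undamaged liver was called for 5 of 10 members, against 17.7% of all genes. The undamaged livers were again of 3M and 7M, so the limit on time after recombination holds here too. They were Hsd3b5 (-6.69 ± 1.64), Hsd11b1 (-1.38 ± 0.42), Hsd3b7 (-1.19 ± 0.30), Akr1c6 (-1.08 ± 0.28) and Hsd3b3 (-1.07 ± 0.35), all log2 differences with adjusted p-values between 0.0194 and 0.0563. For Hsd17b13 it was 1.08 ± 0.45 (adjusted p = 0.114). With library totals the median of all genes moved from 0.10 to 0.68 and 2 members passed, Hsd3b5 at -6.14 and Hsd17b13 at 1.66. Leaving out 1 library at a time left 1 to 5 of the calls, and only that of Hsd3b7 was left without R&Zdel CD 4d replicate 2 or without R&Zflox CD 4d replicate 1.

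**Figure D4:**
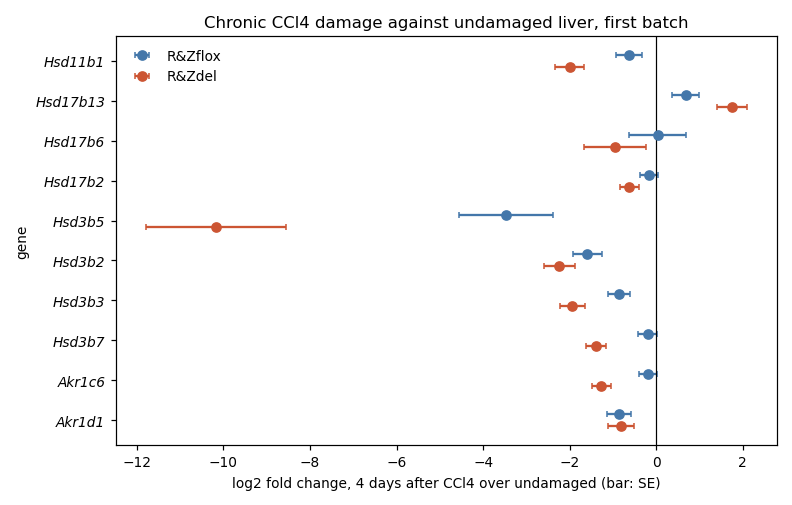
Log2 fold changes (x axis, TMM scale, bars are 1 SE) of the 10 members at CD 4d against undamaged liver of the first batch, in R&Zflox (blue) and R&Zdel (red). The undamaged livers were of 3M and 7M, later after recombination than CD 4d. In R&Zdel, Hsd3b5 lies lowest at -10.17 and Hsd17b13 is the member called higher, at 1.76.

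After partial hepatectomy the 2 members that differed in undamaged liver differed again. At PHx 7d Hsd11b1 was at 546, 573 and 722 CPM in R&Zflox and 189, 335 and 373 CPM in R&Zdel. Hsd17b13 was at 272, 296 and 301 CPM against 63.0, 107 and 112 CPM. At PHx 21d Hsd11b1 was at 409, 533 and 599.9 CPM against 183, 215 and 331 CPM, and Hsd17b13 was at 247, 303 and 322 CPM against 18.2, 24.3 and 67.0 CPM. The genotypes did not overlap in either gene at either time, and the female R&Zdel PHx 21d library (331 and 24.3 CPM) stayed below every control.

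By the rule the study used for PHx, an unadjusted p under 0.05 with a log2 fold change beyond 1, 2 of 9 members were called at 7 days, where 3.99% of all genes were. Hsd17b13 was at -1.71 ± 0.38 (edgeR adjusted p = 0.0825) and Hsd11b1 at -1.13 ± 0.27 (adjusted p = 0.111). Hsd11b1 was not called without R&Zdel PHx 7d replicate 2 (-0.90), while Hsd17b6 was without R&Zdel PHx 7d replicate 3 (-1.49) and Hsd3b5 without R&Zflox PHx 7d replicate 2 (1.66). At 21 days 3 of 9 members were called, against 6.56% of all genes. Hsd17b13 was at -3.09 ± 0.41 (8.51-fold lower, adjusted p = 0.000357) and Hsd11b1 at -1.46 ± 0.28 (adjusted p = 0.0186). Hsd17b6 was at -1.88 ± 0.50 (adjusted p = 0.187), with 56.9, 66.7 and 101 CPM in R&Zflox and 16.1, 29.7 and 47.1 CPM in R&Zdel.

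Akr1c6 was again above R&Zflox without overlap, at 889, 1201 and 1388 CPM in R&Zflox and 1840.2, 2305 and 2341 CPM in R&Zdel at 7 days (0.81 ± 0.18, adjusted p = 0.0657, short of the fold minimum). At 21 days it was at 1219, 1362 and 1441 CPM against 1769, 2018 and 2447 CPM (0.56 ± 0.18, adjusted p = 0.34). Akr1d1 was at 72.3, 76.8 and 132 CPM against 33.8, 64.5 and 70.0 CPM at 7 days (-0.84 ± 0.37, adjusted p = 0.817). Hsd3b5 at 7 days was at 182, 245 and 7.15 CPM in R&Zflox and 296, 323 and 338 CPM in R&Zdel, the lowest value being that of the library with the female pattern. Its log2 fold change of 1.06 ± 0.60 became 0.52 when that library was entered as female, and at 21 days it was -0.07 ± 0.61. The remaining members were not called. Their log2 fold changes at 7 days were -0.83 ± 0.48 for Hsd17b6, -0.20 ± 0.25 for Hsd17b2, -0.24 ± 0.69 for Hsd3b2 and 0.27 ± 0.31 for Hsd3b3. At 21 days they were -0.54 ± 0.26 for Hsd17b2, 0.33 ± 0.73 for Hsd3b2, 0.11 ± 0.32 for Hsd3b3 and -0.35 ± 0.39 for Akr1d1.

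Compared with undamaged 1M liver of the same genotype, 0 of 9 members were called by edgeR after PHx at either time, where 0.0235% of all genes were called in R&Zflox and 0.0157% in R&Zdel at 7 days and 0 at 21 days. At an unadjusted p under 0.05 there were 3 members in R&Zflox at 7 days, 1 in R&Zdel at 7 days and 0 at 21 days, and DESeq2 called 1 member, in R&Zdel at 7 days. The largest difference in R&Zdel was that of Hsd17b13 at 7 days (1.28 ± 0.40, adjusted p = 0.868), whose levels of 63.0 to 112 CPM lay above the 27.6 to 54.8 CPM of undamaged R&Zdel 1M livers. The genotype effect was not called different between 21 and 7 days for any member by edgeR or DESeq2, with 1 at an unadjusted p under 0.05, Hsd17b13 at -1.38 ± 0.53 (adjusted p = 0.774), which passed at -2.40 without R&Zdel PHx 21d replicate 2.

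**Figure D5:**
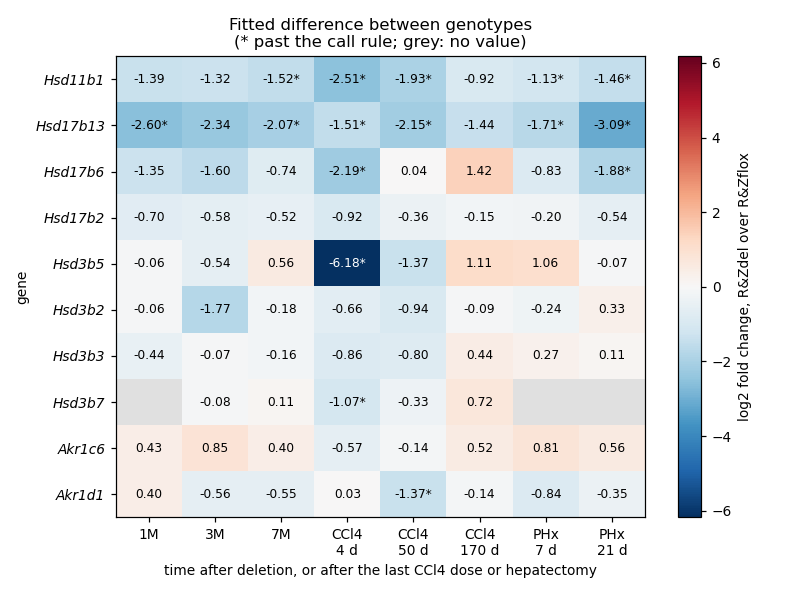
Heat map of the log2 fold changes of R&Zdel over R&Zflox (TMM scale, printed in the cells) for each member (vertical axis) in each condition (horizontal axis), where a star marks a call and grey marks no value. Hsd17b13 runs from -3.09 at PHx 21d to -1.44 at CD 170d, Hsd11b1 from -2.51 at CD 4d to -0.92 at CD 170d, and Hsd3b5 reaches -6.18 at CD 4d.

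Over the 30 libraries of the second batch, which share batch, genotype and sex structure, the genes whose log2 CPM ran most like that of Hsd11b1 were Arg1 (Pearson r = 0.913) and Rida (0.905) of 13266 genes. For Hsd17b13 they were Cyp2f2 (0.919) and Sds (0.918). For Hsd3b5 they were the Y-linked Ddx3y (0.968) and Cyp2d9 (0.960), and for Akr1c6 Rnase4 (0.822) and its neighbour Akr1c20 (0.821). The nearest genes of Akr1d1 were Cfl2 (0.822) and Tob1 (0.807), and those of Hsd17b6 were Kng1 (0.743) and Ccl9 (0.729). Those of Hsd3b3 were Nudt7 (0.716) and Scp2 (0.668), and those of Hsd3b2 were Ofd1 (0.642) and Bik (0.604). Among the members, the closest pairs were Hsd11b1 and Hsd17b13 (0.824), Hsd11b1 and Akr1d1 (0.655), Hsd17b6 and Hsd17b13 (0.649), and Hsd3b5 and Hsd3b3 (0.620). Zonation markers differed between the genotypes alongside at 1M. The 12 periportal markers, Hsd17b13 not among them, summed to 1693 to 2347 CPM in R&Zdel and 5242 to 6366 CPM in R&Zflox at 1M, and 13 pericentral markers to 29063 to 33541 against 11564 to 14819 CPM. Their part in the values of the members was not tested.

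Few other genes of the same chemistry were called between the genotypes in undamaged liver by edgeR. Of 25 other HSD and related short-chain dehydrogenase genes, 21 were matched by symbol and 13 to 15 were tested, and in undamaged liver only Rdh9 at 3M was called (3.48 ± 0.77, adjusted p = 0.0686), where 0.226% of all genes were. At CD 4d, where 10.3% of all genes were called higher and 4.95% lower, 1 of 13 was called higher in R&Zdel, Rdh9 (1.13 ± 0.27), and 2 lower, Rdh7 (-1.18 ± 0.24) and H6pd (-1.10 ± 0.24), which supplies the cofactor for the enzyme encoded by Hsd11b1. R&Zdel at CD 4d had 9 of 14 lower than in undamaged R&Zdel liver, led by Hsd17b10 (-1.84 ± 0.24), Rdh16 (-1.73 ± 0.34) and Rdh7 (-1.58 ± 0.20), against 9.95% of all genes called lower. With library totals in place of TMM the lower calls over all genes in that comparison went from 1255 to 384. The count of this list on that scale is not given here.

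Of 11 other AKR1C genes and steroid reductases, 9 were tested at CD 4d. Akr1c18, which inactivates progesterone, was higher in R&Zdel (2.30 ± 0.79, adjusted p = 0.0719) and Akr1c13 (-1.57 ± 0.21) and Akr1c12 (-1.13 ± 0.17) were lower. Akr1c18 also rose in R&Zflox at CD 4d against undamaged liver (5.2 ± 0.76, adjusted p = 0.00205). The 5α-reductase Srd5a1 was lower in undamaged females (-2.02 ± 0.23, adjusted p = 2.01e-06), the same direction as Hsd3b5. Of 16 steroid receptors and glucocorticoid targets, 14 were tested. By edgeR 0 of 14 were called at 1M, 3M or 7M, with 1, 2 and 2 at an unadjusted p under 0.05, where 0.436%, 0.226% and 0.451% of all genes were called. At CD 4d Per1 (2.86 ± 0.63) was among the genes called higher and Pck1, a gluconeogenic target of glucocorticoids, was called lower (-1.63 ± 0.50, adjusted p = 0.0518) in R&Zdel.

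A list of male-biased liver genes is given beside Hsd3b5. Of 13 such genes, Hsd3b5 not counted, 12 were called lower in undamaged females, where 0.483% of all genes were. The list was chosen as male-biased, so this count is no independent result. In R&Zdel at CD 4d, all of it male liver, 8 of 12 tested were called lower than in R&Zflox, where 4.95% of all genes were. They included Elovl3 (-6.15 ± 1.68), Cyp4a12a (-5.11 ± 0.60) and Slco1a1 (-3.37 ± 0.55). With library totals in place of TMM the lower calls over all genes at CD 4d went from 562 to 197, and the count of the list on that scale is not given here. Of the same list, 3 of 12 were called lower in R&Zflox at CD 4d than in undamaged R&Zflox, where 1.98% of all genes were. At CD 50d and 170d 1 and 0 of 12 were called lower in R&Zdel by edgeR, where 2.94% and 0.211% of all genes were, with 3 and 2 of the list at an unadjusted p under 0.05.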

How the data were processed

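RNA of whole livers was sequenced as single reads of 50 bases from Smart-Seq2 libraries. Per the study's methods and the submitters' processing notes, the authors trimmed the reads (Sickle in the methods, Trim Galore in the notes), aligned them to mm10 with STAR 2.5.0a and counted reads over exons with featureCounts, without strand. The deposited tables hold raw integer counts per gene symbol, and the first batch's file headers name featureCounts 1.5.0-p3.

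Groups were taken from the sample records, and sex from the study's sample list. For 5 libraries the title and the other fields of the record conflict, and they entered no group. Another 2 samples were not analysed here. The 10 genes and the lists beside them were chosen with earlier results of these data known. All 10 members were to be named in every comparison with values for them, of which some uncalled ones stand only in the figures, and from each list at most the 3 called genes with the largest rise and the 3 with the largest fall.

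CPM in the text are counts per 1000000 of a library's total over the 34490 shared symbols. Tests were edgeR 4.0.16 quasi-likelihood tests (R 4.3.3) with TMM scaling and Benjamini-Hochberg adjustment over every gene above 1 CPM in 3 or more libraries (6 for CD). The undamaged model had terms for group, sex and batch, the CD model for group, and the PHx model, with the 1M libraries, for group and sex. CD livers were compared with undamaged ones, of 3M and 7M, in a model of the first batch with terms for group and sex. Genes were called at an adjusted p under 0.1 and a log2 fold change beyond 1, and for the genotypes after PHx at an unadjusted p under 0.05. Scripts were tested on simulated data. DESeq2 1.42.0, other scalings, filters and left-out libraries were alternatives.

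The records do not name the animal behind each library, so p-values measure the spread between these samples. At 1M same-numbered libraries deviated together in all pairs (correlations 0.159 to 0.181) and were counted as paired, but each pair joins a female and a male, so that pairing and a genotype effect that differs by sex cannot be told apart; the fit with that block left the call at 1M as it was. The genes running most like Hsd17b2, and part of the calls among steroid receptors, are not reported here.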

Additional observations from a re-analysis of the deposited data

Results flagged for a closer look

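Of 45 groups of 4 or 5 libraries checked for a library far from the others, 3 had one, and chance gives about 1 in 20. Akr1d1 in R&Zdel 1M was highest at 121 CPM in a female library, with the next at 81.5 CPM. Hsd17b6 in R&Zdel 7M was highest at 213 CPM in a male library of the second batch, with the next at 66.1 CPM. Hsd3b5 in R&Zflox 7M was lowest at 1.01 CPM in the only female library, with the next at 234 CPM.

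The genotype effect differed between conditions in edgeR's test of the difference itself for 9 values, all in the first batch and on the log2 scale. Between CD 4d and undamaged liver the effect differed by -6.69 for Hsd3b5, -1.38 for Hsd11b1, -1.19 for Hsd3b7, -1.08 for Akr1c6 and -1.07 for Hsd3b3. Those undamaged livers were of 3M and 7M, later after recombination than CD 4d. Between 170 and 4 days of recovery it differed by 7.29 for Hsd3b5, 3.62 for Hsd17b6, 1.79 for Hsd3b7 and 1.59 for Hsd11b1.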

How the results depend on the processing

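Of 35 member values called, 0 reversed in any of 477 alternative settings and 11 were called in every one; of 170 uncalled values, 61 changed sign in some setting. Counts of called members moved as follows, with the cause not tested. At 1M the count of 1 became 2 without a filter on low counts, by DESeq2, by the likelihood ratio test and with the time point's libraries alone, and 0 in males alone; at 3M the count of 0 became 1 without the filter, by DESeq2, by the likelihood ratio test and with the library of conflicting records placed as R&Zdel 3M, and leaving out 1 library gave 0 to 1, the 1 without R&Zflox 3M replicate 5. At 7M the count of 2 became 0 in the second batch alone and with the time point's libraries alone, 1 in the first batch alone, and 1 to 2 with 1 library left out. Between the sexes 1 became 2 without the filter, by DESeq2 and without a fold minimum. With library totals, 5 became 2 at CD 4d, 5 became 2 for the difference between CD 4d and undamaged liver, and 4 became 2 for that between 170 and 4 days. At CD 170d the count of 0 became 3 without the filter and 1 by DESeq2 and by the likelihood ratio test. Placing libraries by the other fields of conflicting records gave 1 member at CD 4d and 0 at CD 50d. After PHx 7d the count of 2 became 1 by the adjusted p, and against undamaged 1M liver 0 became 1 in R&Zflox without the filter and in R&Zdel without the filter and by DESeq2. For R&Zflox at CD 4d against undamaged liver 2 became 1 with 3M controls alone and 4 without a fold minimum.

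Leaving out 1 library at a time gave 2 to 4 members at CD 4d, 0 to 2 at CD 50d, 0 to 3 at CD 170d, 0 to 8 for the difference between 170 and 4 days, 1 to 5 for that between CD 4d and undamaged liver, 0 to 2 for R&Zflox at CD 4d against undamaged liver, 1 to 3 at PHx 7d and 0 to 1 for the difference between PHx 21d and 7d. With the replicate number as a block, 4 members in place of 2 were called at PHx 7d, Hsd17b6 and Hsd3b5 being added, where same-numbered libraries did not deviate together (correlations -0.0666 to -0.00978), and the counts were 1 at 1M, 2 at 7M, 5 at CD 4d and 3 at PHx 21d as without it. At CD 170d same-numbered libraries deviated apart (-0.357), and the crossed pairing, chosen after seeing the data, called 1 member in place of 0. At 3M and CD 50d no paired analysis was possible because fewer than 2 numbers are shared. Entering the PHx library at odds with its listed sex as female, also chosen after seeing the data, changed no count. With 1 or 2 libraries in several groups, differences of several times the errors given could also go uncalled, such as that of Hsd17b13 at 3M (-2.34). An uncalled value therefore does not show that the groups were alike.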

Other observations

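Over the 5 libraries whose records conflict on their group, all of the first batch and all with the female transcript pattern, Hsd3b5 ranged from 0.32 to 5.08 CPM with a median of 1.04 CPM. Hsd11b1 ranged from 512 to 1297 CPM (median 625), Hsd17b13 from 81.3 to 627 CPM (149), Hsd17b6 from 51.3 to 178 CPM (88.6) and Hsd17b2 from 133 to 183 CPM (157). Hsd3b7 ranged from 455 to 939 CPM (723), Hsd3b3 from 133 to 217 CPM (153), Hsd3b2 from 5.32 to 14.6 CPM (9.99), Akr1c6 from 1457 to 2688 CPM (2108) and Akr1d1 from 148 to 211 CPM (205).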
